A study of Mus musculus with 6 samples.

Results

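The transcripts of 10 genes used to mark a mesenchymal switch were followed in mouse ovarian surface epithelial tumour cells: the transcription factors Zeb1, Zeb2, Snai1, Snai2, Twist1, Twist2 and Prrx1, and the mesenchymal proteins N-cadherin (Cdh2), vimentin (Vim) and S100a4. These are 10 of 18194 genes on the array. Of the probe sets annotated to a gene alone, the brightest on average (by mean log2 signal) stands for it here, and the others were checked.

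The cells carry the p53 mutation R172H on both alleles (homozygous), the mutation beside wild-type p53 (heterozygous), or wild-type p53, with 2 Affymetrix arrays in each group. All were labelled P/K OSE cells, a name the labels do not spell out, and came from mice of mixed background strain. They were digested from the ovary with trypsin, cultured in serum and collected without passage. Both homozygous samples came from mice of 4 weeks, the heterozygous samples from mice of 9 weeks (replicate 1) and 12 weeks (replicate 2), and both wild-type samples from mice of 9 weeks, so age and homozygosity cannot be told apart. A source label of the homozygous samples names Trp63 where the titles name Trp53, and the titles were followed. The labels do not say whether the 2 samples of a group came from separate animals or cultures, so p-values measure only the spread between these samples.

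In an epithelial-mesenchymal transition, ZEB and SNAI zinc-finger proteins bind E-box sequences in the promoters of junction genes such as Cdh1 (E-cadherin) and Epcam and repress them. TWIST and PRRX factors activate mesenchymal genes, and a cell often gains N-cadherin and vimentin as it loses E-cadherin. The ovarian surface epithelium is unusual in that it normally carries N-cadherin and vimentin together with keratins.

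The E-box bound by ZEB and SNAI proteins reads CACCTG, or CAGGTG on the other strand. The promoters of 2 epithelial genes described below, Epcam and Mapk13, and of 2 of the factors, Snai1 and Prrx1, are shown so that the presence or absence of the motif can be seen. Each sequence is the 250 bases before a RefSeq start site in GRCm38.p6, written 5′ to 3′ on the gene's strand, with the motif on either strand in capitals.
Epcam, chr17:87635729-87635978, plus strand: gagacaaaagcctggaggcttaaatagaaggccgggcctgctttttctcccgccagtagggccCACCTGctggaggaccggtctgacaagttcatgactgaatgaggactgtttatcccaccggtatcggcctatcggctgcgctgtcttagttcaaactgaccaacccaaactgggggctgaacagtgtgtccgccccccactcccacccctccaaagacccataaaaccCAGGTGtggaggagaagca
Mapk13, chr17:28769067-28769316, plus strand: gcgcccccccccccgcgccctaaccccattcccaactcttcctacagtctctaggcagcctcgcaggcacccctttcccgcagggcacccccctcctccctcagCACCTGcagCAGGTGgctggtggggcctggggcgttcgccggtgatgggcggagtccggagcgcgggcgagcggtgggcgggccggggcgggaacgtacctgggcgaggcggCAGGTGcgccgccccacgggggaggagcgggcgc
Snai1, chr2:167537945-167538194, plus strand: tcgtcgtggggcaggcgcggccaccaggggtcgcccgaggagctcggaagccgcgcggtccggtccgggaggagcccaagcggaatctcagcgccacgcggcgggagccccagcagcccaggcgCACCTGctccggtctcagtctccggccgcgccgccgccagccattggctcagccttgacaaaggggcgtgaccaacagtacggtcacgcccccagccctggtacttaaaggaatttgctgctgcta
Prrx1, chr1:163313651-163313900, minus strand: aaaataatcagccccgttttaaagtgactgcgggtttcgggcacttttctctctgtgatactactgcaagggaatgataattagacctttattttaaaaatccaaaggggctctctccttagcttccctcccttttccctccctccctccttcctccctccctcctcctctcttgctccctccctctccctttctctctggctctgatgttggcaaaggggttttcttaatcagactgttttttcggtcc
Epcam holds the motif 187 and 19 bases before the start, Mapk13 at 146, 137 and 34 bases, and Snai1 at 126 bases, while this window of Prrx1 holds none. The Prrx1 gene is annotated up to position 163315145, so its window lies inside the gene, before an internal start. The bases before its outermost start are not shown. Over windows that add the 50 bases after the start, 1 of 7 members with a RefSeq promoter held it (Snai1), as did 17 of 20 genes of a list of epithelial genes (85.0%) and 1 of 21 mesenchymal effector genes (4.76%). Among all 27025 genes with a promoter the share was 22.6%. The epithelial list was built largely from genes known as targets of these repressors, so its share is not independent evidence, and a match is a description of the sequence only.

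The signals of an array are linear intensities. Its median probe set lay between 41.1 and 60.6, and 24.5, the top signal among 18 readings of bacterial control probes, was taken as background. Between replicate arrays, the log2 difference had an SD over genes of 1.30 (homozygous), 0.55 (heterozygous) and 0.60 (wild-type). The homozygous pair thus differed most among the replicate pairs. Homozygous array 2 differed less from every heterozygous and wild-type array (SD 1.07 to 1.21) than from homozygous array 1. Heterozygous array 1 and wild-type array 2 were the most alike (SD 0.31). Ovarian surface epithelial markers were present in the heterozygous and wild-type arrays, where Krt7 (keratin 7) had signals of at least 11838. In the homozygous arrays Krt7 had signals of 60.5 and 1729, and Aldh1a2, a retinoic acid enzyme of the mesothelium, had 1.06, under background, and 1979. Of 19 tested markers of this epithelium, Upk1b (a uroplakin) fell in homozygous against wild-type arrays and the other 18 did not pass. Upk1b had 4628 and 4584 in homozygous against 20757 and 29097 in wild-type arrays. Nkain4, a mesothelial membrane protein, had 10.2, under background, and 114 in homozygous against 2445 and 1638 in wild-type arrays (adjusted p = 0.0587, limma). These 4 markers were lower in both homozygous arrays than in all others, and 3 of them were lowest in array 1, while Upk1b was nearly equal in both. Signals of different probe sets cannot be set against each other as levels, so the order of signals below runs across groups within a gene.

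None of the members passed the test in any comparison of 2 groups. With limma and Benjamini-Hochberg adjustment, 0 of the 8 members tested were called in homozygous against wild-type arrays, where 2.67% of all 10916 tested genes were called. By direction, 0.412% of genes were called higher and 2.25% lower. In homozygous against heterozygous arrays 0 of 8 were called, beside 4.09% of genes (0.87% higher and 3.22% lower). In heterozygous against wild-type arrays 0 of 8 were called, beside 0% of genes. At an unadjusted p under 0.05 the counts of members were 3, 3 and 0 in these comparisons, beside 3159, 3345 and 71 of all tested genes. Snai1 and Twist2 were too dim for this test. The median log2 difference of the 8 members was 0.37 in homozygous against wild-type arrays, beside -0.09 over all tested genes. It was 0.20 beside -0.08 in homozygous against heterozygous arrays, and 0.10 beside 0.00 in heterozygous against wild-type arrays.

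**Figure D1:**
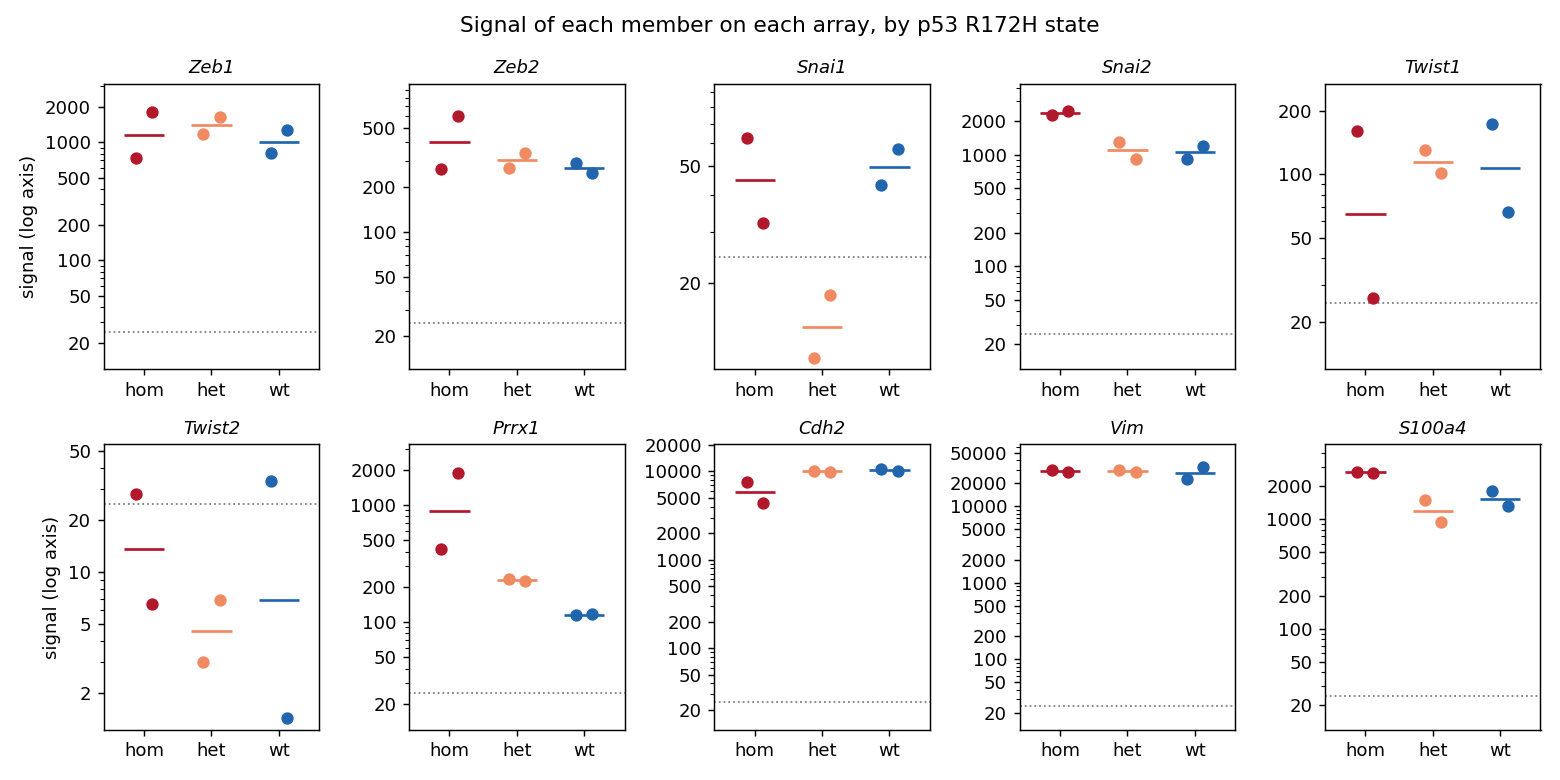
Signals of the 10 members on a log axis (linear intensity), with a point for each array, homozygous, heterozygous and wild-type from left to right, a bar at the geometric mean of each group and a dotted line at the background level of 24.5. Prrx1 and Snai2 lie highest in the homozygous arrays, Cdh2 lowest, and the Vim groups overlap, with the wild-type pair the most spread.

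Zeb1, the zinc-finger homeobox repressor best known for silencing E-cadherin, had signals of 728 and 1803 in homozygous arrays, 1175 and 1633 in heterozygous arrays and 809 and 1263 in wild-type arrays. The groups overlapped, and the homozygous pair spanned the other 4 arrays. The log2 difference of homozygous against wild-type was 0.18 ± 0.52 (SE, limma, n = 2 each, adjusted p = 0.836). Its second usable probe set lay between 44.5 and 125 and gave overlapping groups as well in this comparison.

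Zeb2, its paralog, had 266 and 604 in homozygous, 268 and 342 in heterozygous and 292 and 251 in wild-type arrays. It was high in homozygous array 2 alone. The log2 difference of homozygous against wild-type was 0.57 ± 0.44 (SE, limma, n = 2 each, adjusted p = 0.423). A second probe set showed homozygous array 2 alone high as well, another had both homozygous arrays highest (340 and 321, against at most 238 elsewhere), and the last usable one overlapped in all groups. The Zeb2 probe sets therefore disagree on which homozygous array is high.

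Snai1, the prototype SNAIL repressor, lay near background: 62.8 and 32.1 in homozygous, 11.1 and 18.2 in heterozygous and 43.3 and 57.1 in wild-type arrays. Both heterozygous arrays were under background, so only a bound can be given: heterozygous signals were at least 2.03-fold lower than wild-type signals and homozygous signals at least 1.83-fold higher than heterozygous signals. The homozygous and wild-type signals overlapped. Snai1 lies under the filter and was tested only in the fit with no filter on dim genes, where it did not pass (limma adjusted p = 0.198 for homozygous against heterozygous arrays).

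Snai2, the paralog known as SLUG, had 2284 and 2460 in homozygous, 1293 and 922 in heterozygous and 910 and 1208 in wild-type arrays. Both homozygous arrays lay above all 4 others, which did not separate. The signal was 2.26-fold the wild-type signal, a log2 difference of 1.18 ± 0.29 (SE, limma, n = 2 each, adjusted p = 0.0838). Against heterozygous arrays the log2 difference was 1.12 ± 0.29 (adjusted p = 0.0823, same fit). A second Snai2 probe set had 512 and 650 in homozygous, 252 and 188 in heterozygous and 211 and 224 in wild-type arrays, which is 2.65-fold for homozygous against wild-type. Both probe sets thus gave the same order.

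Twist1, a basic helix-loop-helix activator, had 160 and 26.1 in homozygous, 130 and 101 in heterozygous and 174 and 66.4 in wild-type arrays. Its homozygous arrays spread from the second highest of the 6 signals to the lowest. The log2 difference of homozygous against wild-type was -0.73 ± 0.94 (SE, limma, n = 2 each, adjusted p = 0.632). Twist2 was above background in 2 of 6 arrays, homozygous array 1 (28.0) and wild-type array 1 (33.3), and its other signals lay between 1.43 and 6.85, so its level could not be ordered.

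Prrx1, a paired-related homeobox factor of limb and wound mesenchyme, was the member with the largest difference. Its signals were 423 and 1897 in homozygous, 231 and 223 in heterozygous and 114 and 117 in wild-type arrays. The 3 groups did not overlap in either step, and Prrx1 was the only tested member whose arrays lay in the order wild-type, heterozygous, homozygous. In all, 258 of the 10916 tested genes (2.36%) lay in that rising order and 3.26% in the falling order. The homozygous signal was 7.75-fold the wild-type signal (95% interval 2.27 to 26.4), a log2 difference of 2.95 ± 0.70 (SE, limma, n = 2 each, adjusted p = 0.0786). The log2 difference was 1.98 ± 0.70 (adjusted p = 0.135) against heterozygous arrays, and 0.98 ± 0.70 (adjusted p = 1.00) for heterozygous against wild-type arrays, all from the same fit. The homozygous arrays differed by 4.49-fold from each other, and that spread enters the SE. Without homozygous array 1 the homozygous against wild-type difference was 4.04 (adjusted p = 0.00448), and without homozygous array 2 it was 1.87 (adjusted p = 0.00794), the lone array being assumed to vary like the other groups. Against heterozygous arrays these values were 3.06 (adjusted p = 0.00643) and 0.90 (adjusted p = 0.0650).

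**Figure D2:**
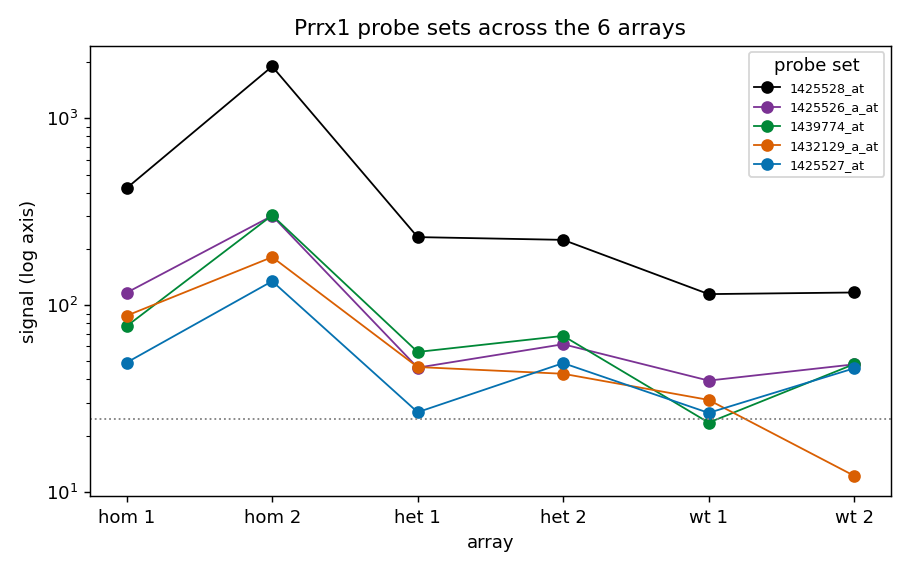
Signals by array, on a log axis (linear intensity), of the 5 Prrx1 probe sets with at least 5 arrays above background. Groups are ordered homozygous, heterozygous, wild-type, with a dotted line at the background level of 24.5. In all 5 probe sets both homozygous arrays lie above all others, and homozygous array 2 is higher than array 1.

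The 5 Prrx1 probe sets with signal in at least 5 arrays gave homozygous over wild-type folds of 7.75, 4.30, 4.54, 6.47 and 2.33. Heterozygous arrays lay above wild-type arrays without overlap in 3 of the 5. The sixth probe set was under background on all arrays.

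Cdh2, N-cadherin, a classical cadherin of mesenchymal and surface epithelial cells, had 7656 and 4373 in homozygous, 10091 and 9900 in heterozygous and 10654 and 10035 in wild-type arrays. Both homozygous arrays lay below the other 4, which differed little. The homozygous signal was 0.560-fold the wild-type signal (95% interval 0.317 to 0.988), a log2 difference of -0.84 ± 0.32 (SE, limma, n = 2 each, adjusted p = 0.167). Against heterozygous arrays it was -0.79 ± 0.32 (adjusted p = 0.174, same fit). Its second probe set gave 0.567-fold for homozygous against wild-type. N-cadherin was thus lower, not higher, in homozygous arrays on both probe sets, and the difference did not pass the test.

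Cdh1, E-cadherin, the partner of N-cadherin in a cadherin switch, had 20.3, under background, and 157 in homozygous arrays, 316 and 311 in heterozygous arrays and 165 and 106 in wild-type arrays. Its log2 difference of homozygous against wild-type was -1.22 ± 0.95 (SE, limma, n = 2 each, adjusted p = 0.428), with overlapping arrays. Against heterozygous arrays, both homozygous arrays lay below, with a log2 difference of -2.47 ± 0.95 (adjusted p = 0.157, same fit). Cdh2 minus Cdh1, the within-array log2 difference, was at least 8.29 (with Cdh1 raised to background) and 4.80 in homozygous, 5.00 and 4.99 in heterozygous and 6.01 and 6.57 in wild-type arrays. Only differences between groups in this measure can be read, since the probe sets differ. The homozygous arrays lay on both sides of the wild-type and of the heterozygous arrays, while the heterozygous arrays lay below both wild-type arrays, by 1.30 on average. The exact two-sided permutation test gave p = 1, 1 and 0.333 for homozygous against wild-type, homozygous against heterozygous and heterozygous against wild-type arrays. With 2 arrays against 2 the smallest possible p is 0.333, so this test could not have called an exchange of E-cadherin for N-cadherin. The homozygous minus wild-type difference of the measure was 0.25 with Cdh1 raised to background and 0.38 with Cdh1 as measured. With Cdh1 as measured it was -1.50 without homozygous array 1 and 2.27 without homozygous array 2. The 2.27 rests on the Cdh1 signal under background. The direction of the difference depends on the array.

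Vim, vimentin, the intermediate filament of mesenchymal cells, had 29983 and 28014 in homozygous, 29861 and 28426 in heterozygous and 22650 and 32125 in wild-type arrays. All groups overlapped in all 3 Vim probe sets. Homozygous against wild-type gave 1.07-fold with a 95% interval from 0.681 to 1.70, and homozygous against heterozygous 0.995-fold with an interval from 0.630 to 1.57. With 2 arrays a group, a change in vimentin of up to 1.70-fold is not resolved. The Vim signals also lie near the top of the scale, as the highest signal of an array lay between 40449.5 and 51557.5. Whether signals this bright still follow RNA amount in proportion was not tested.

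S100a4, a calcium-binding protein also known as fibroblast-specific protein, had 2726 and 2643 in homozygous, 1497 and 938 in heterozygous and 1819 and 1311 in wild-type arrays. Both homozygous arrays lay above the other 4. The log2 difference was 0.80 ± 0.33 (SE, limma, n = 2 each, adjusted p = 0.182) against wild-type and 1.18 ± 0.33 (adjusted p = 0.0919) against heterozygous arrays.

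**Figure D3:**
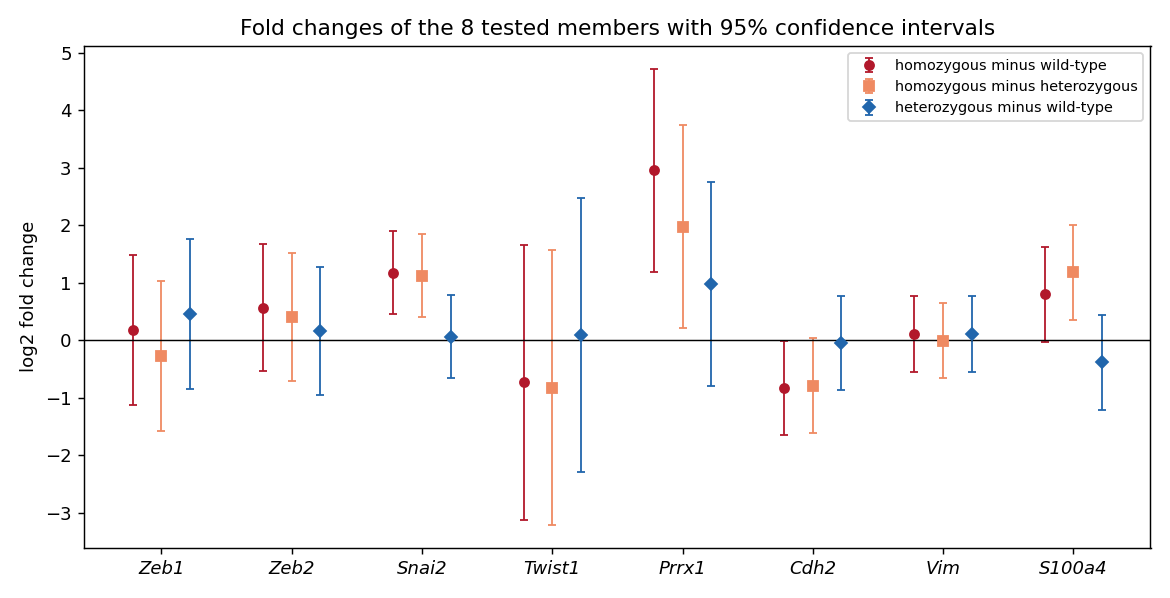
Log2 fold changes of the tested members in the 3 comparisons (homozygous minus wild-type, homozygous minus heterozygous, heterozygous minus wild-type), with 95% intervals from limma and a line at 0. In homozygous against wild-type arrays Prrx1 (2.95) and Snai2 (1.18) lie furthest above 0 and Cdh2 (-0.84) furthest below among those whose interval leaves out 0, and none passed the adjusted threshold.

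Counted by overlap, 3 of 8 members (Snai2, Prrx1 and S100a4) had both homozygous arrays above both wild-type arrays, as did 27.4% of all tested genes, and 1 (Cdh2) had both below, as did 33.8%. Against heterozygous arrays the same 3 lay above (28.2% of all genes) and the same 1 below (34.2%), so 4 of 8 did not overlap, beside 62.5% of all genes. In heterozygous against wild-type arrays Prrx1 lay above (13.2% of all genes) and none below (12.8%), beside 26% in either direction. With 4 of 8 members not overlapping in homozygous against wild-type arrays and 61.2% of all tested genes doing so, the members do not stand out by this count.

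The members differed in both directions between the 2 homozygous arrays. In array 2 relative to array 1, Prrx1 was higher by 2.17, Zeb1 by 1.31 and Zeb2 by 1.18 on the log2 scale, while Twist1 was lower (-2.62), as was Cdh2 (-0.81). Snai2, Vim and S100a4 differed by at most 0.11. The members differed more within the homozygous pair, with a median absolute difference of 1.00 beside 0.42 for all tested genes, than within the heterozygous (0.36 beside 0.29) and wild-type (0.44 beside 0.30) pairs.

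**Figure D4:**
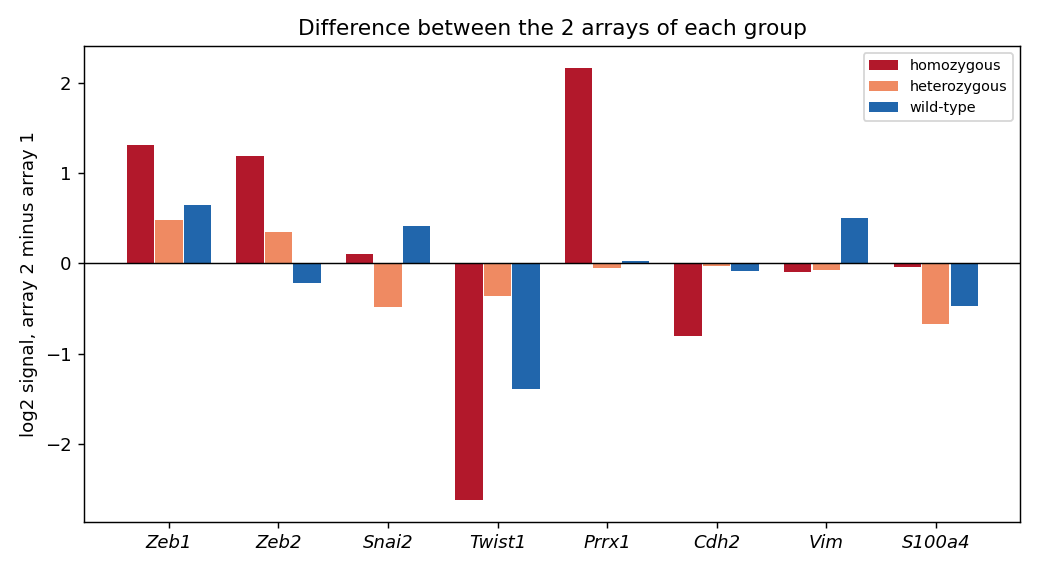
Log2 difference between replicate 2 and replicate 1 of each member in the homozygous, heterozygous and wild-type pairs. Within the homozygous pair Prrx1 (2.17) and Twist1 (-2.62) lie far from 0 on opposite sides.

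Markers of other cells differed between the arrays. The summed signal of the stromal fibroblast markers was 24049 and 96466 in homozygous, 48479 and 62046 in heterozygous and 67983 and 50411 in wild-type arrays. Their median was 3.55 higher on the log2 scale in homozygous array 2 than in array 1. Of 10 tested markers 9 were higher in array 2, among them the collagen Col3a1 (255 and 31824). Against wild-type arrays the median of the list was -1.30, with 7 of 10 differences negative. Its 1 called marker, Pdgfra, fell in both homozygous arrays (130 and 103, against 615 and 1056 in wild-type arrays). Thy1 was also low in both (3.44, under background, and 37.3, against 677 and 458). Smooth muscle and pericyte markers had sums of 12415 and 48098 in homozygous, 35015 and 32308 in heterozygous and 22360 and 35135 in wild-type arrays, again with array 2 the higher of the homozygous pair (median 1.74). Granulosa and theca markers had sums of 390 and 2081 in homozygous, 3836 and 5691 in heterozygous and 8775 and 5141 in wild-type arrays. Prrx1, Zeb1 and Zeb2 were also higher in array 2 of the homozygous pair. The summed signal of the macrophage markers was 763 and 768 in homozygous, 6063 and 5807 in heterozygous and 3301 and 2737 in wild-type arrays, and that of the endothelial markers was 2614 and 3174 in homozygous, 10040 and 11415 in heterozygous and 11191 and 11827 in wild-type arrays. The lysozyme Lyz2 was at least 24.1-fold lower and the endothelial adhesion protein Icam2 at least 38.7-fold lower in homozygous than in wild-type arrays, both homozygous arrays being under background. Ctss (cathepsin S) was at least 22.9-fold lower in the same way. Mpeg1, a macrophage gene, fell by 2.63 on the log2 scale, and its difference was -2.46 with signals raised to background. Kdr, the endothelial growth factor receptor, fell by 5.22, and Esam, an endothelial adhesion molecule, fell by 1.83. Only 5 of 12 endothelial markers were bright enough to be tested, of which 3 fell and 1 had a positive difference (0.20). Of 15 macrophage markers 10 were tested, 3 fell and 1 had a positive difference (0.61). Over all tested genes 2.25% were called lower. Against heterozygous arrays Fcer1g, an immune receptor subunit, and Fst (follistatin) fell as well, by 2.48 and 2.25. Named as the next largest differences and not past the threshold were the endothelial Cd34 (-1.97), the granulosa and theca genes Star (-4.35), Inha (-3.82) and Nr5a1 (-3.27), the stromal Lum (-2.14), the smooth muscle genes Actg2 (-1.31), Des (-1.21) and Tagln (-0.83), and the lymphocyte genes Ighm (0.33) and Zap70 (-0.22), as log2 differences of homozygous against wild-type arrays. For Lum, Actg2, Des, Tagln and Ighm the homozygous and wild-type arrays overlapped. Lum had 2.15, under background, and 1566 in homozygous against 310 and 210 in wild-type arrays. With signals raised to background its difference was -0.38. Tagln had 1986 and 20059 against 9447 and 13280, and Nr5a1 had 9.21, under background, and 556 against 736 and 651. Vim, S100a4 and Zeb2 are also made by fibroblasts or macrophages. Fewer cells of a type and less RNA per cell cannot be told apart in bulk RNA. The lymphocyte markers Cd3g, Cd4, Cd79a and Ms4a1 and the endothelial markers Tie1 and Vwf were under background on all arrays. The part of these other cells in the members' values was not tested.

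Several epithelial junction genes fell in homozygous cells. In a list of epithelial genes, 5 of 20 tested fell in homozygous against wild-type arrays, 0 rose and 15 did not pass. Over all tested genes 2.25% were called lower. The median log2 difference of the list was -2.28 beside -0.09 over all genes. The list was chosen with earlier results of these data known. Of the 20, 18 had a negative difference. Epcam, the epithelial adhesion molecule, had signals of 27.6 and 22.2 in homozygous, 1033 and 555 in heterozygous and 857 and 1242 in wild-type arrays. Its log2 difference of homozygous against wild-type was -5.38 ± 0.39 (SE, limma, n = 2 each, adjusted p = 0.0136), or -5.31 with signals raised to background, because homozygous array 2 lay under it. A second Epcam probe set gave a smaller difference of -1.81. Mapk13, the p38 delta kinase, had 15.3, under background, and 72.2 in homozygous against 1968 and 1283 in wild-type arrays. It fell by 5.58 ± 0.81 (SE, limma, adjusted p = 0.0435), and its difference was -5.24 with signals raised to background. Marveld2 and Marveld3, tight junction proteins, and Spint1, a protease inhibitor of epithelia, fell as well. In homozygous against heterozygous arrays 6 of 20 fell, beside 3.22% of all tested genes, Ocln (occludin) being the sixth. In heterozygous against wild-type arrays 0 of 20 passed (0 at an unadjusted p under 0.05 in limma), with a median of 0.02. The 5 and 6 calls depend on the arrays and the filter. Both counts were 0 without any 1 of the heterozygous or wild-type arrays, with no filter on dim genes and with only the compared groups in the fit, and they were 1 and 2 of 10 with the filter at the 60th percentile. They were 12 and 11 without homozygous array 1, and 16 and 17 without homozygous array 2, and at least 18 of the 20 differences stayed negative in each fit that left out an array.

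The mesenchymal effectors gave no shift one way. Of 31 tested, 1 rose, 1 fell and 29 did not pass in homozygous against wild-type arrays. Over all tested genes 0.412% were called higher and 2.25% lower. Of the 31, 13 had a positive and 18 a negative difference, and the median was -0.14. Ddr2, a collagen receptor kinase, rose to 1203 and 1328 in homozygous arrays, against 198 and 207 in wild-type arrays, by 2.64 ± 0.24 (SE, limma, n = 2 each, adjusted p = 0.0177). Pdgfra, the growth factor receptor of fibroblasts, fell to 130 and 103 in homozygous arrays, against 615 and 1056 in wild-type arrays, by 2.81 ± 0.36 (adjusted p = 0.0326). Fn1, fibronectin, had 16291 and 27654 in homozygous against 9376 and 9273 in wild-type arrays, a log2 difference of 1.19 ± 0.31 (adjusted p = 0.0940). Its heterozygous signals, 15145 and 14723, lay between those of the other groups. A second Fn1 probe set gave a larger difference of 2.73 for homozygous against wild-type arrays. Thy1, a surface glycoprotein of fibroblasts, had 3.44, under background, and 37.3 in homozygous against 677 and 458 in wild-type arrays, a log2 difference of -5.62 ± 1.11 (adjusted p = 0.0633), or -4.20 with signals raised to background. Nt5e (CD73), an ecto-nucleotidase, had 559 and 41.0 in homozygous against 1169 and 1989 in wild-type arrays, a log2 difference of -3.33 ± 1.20 (adjusted p = 0.151). The list differed within the homozygous pair, with a median difference of 1.25 and 23 of 31 genes higher in array 2. Without homozygous array 1, 5 genes rose, 3 fell and 21 of 31 differences were positive. Without homozygous array 2, 4 rose, 14 fell and 8 of 31 were positive, so the direction of this list depends on the homozygous array used. With arrays centred on their medians 17 were positive and 14 negative. The calls of Ddr2 and Pdgfra were both lost without any 1 of the heterozygous or wild-type arrays, with no filter, with averaged probe sets and with only the compared groups in the fit.

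Of 17 further transition regulators tested, 0 passed in homozygous against wild-type arrays by limma (6 at an unadjusted p under 0.05), and 11 had a positive and 6 a negative difference with a median of 0.37. Tead2, a partner of the Hippo coactivators, rose in homozygous against heterozygous arrays (adjusted p = 0.0444), with signals of 972 and 667 against 229 and 214. It missed the threshold against wild-type arrays (187 and 264; log2 difference 1.86 ± 0.31, adjusted p = 0.0502). This call of the list was lost without any 1 of the heterozygous or wild-type arrays, with either other filter, with centred or quantile-normalised arrays, with averaged probe sets, with a spread for each group and with only the compared groups in the fit. Without homozygous array 2, 7 of the 17 regulators rose against heterozygous and 5 against wild-type arrays. Hmga2, a chromatin protein, had 6748 and 1147 in homozygous against 127 and 243 in wild-type arrays, a log2 difference of 3.99 ± 0.90 (adjusted p = 0.0737). The transcription factors Foxc1 and Sox11 were also higher in both homozygous arrays than in both wild-type arrays, with log2 differences of 2.51 (adjusted p = 0.0724) and 2.78 (adjusted p = 0.235). Factors that guard epithelial identity gave 0 called of 5 tested, and the 2 with an unadjusted p under 0.05 differed in opposite directions. Grhl1, a grainyhead factor of epithelia, was lower in both homozygous arrays (17.6, under background, and 72.8, against 348 and 216 in wild-type arrays; log2 difference -2.94 ± 0.84, adjusted p = 0.106). Klf5, a Kruppel-like factor, was higher (393 and 352 in homozygous against 166 and 174 in wild-type arrays; 1.13 ± 0.22, adjusted p = 0.0645). Elf3 (0.39) and Klf4 (-0.13) overlapped. The 22 genes of the TGF-beta and NOTCH inputs to the transition gave 0 called (4 at an unadjusted p under 0.05) with a median of 0.07. Bmp4, a TGF-beta family ligand, was the nearest to the threshold of those named from that list, with 4082 and 4160 in homozygous against 1364 and 1256 in wild-type arrays (log2 difference 1.65 ± 0.29, adjusted p = 0.0551). The NOTCH ligand Jag1 (1.91, adjusted p = 0.0881) was higher, and the WNT effector Lef1 (-2.33, adjusted p = 0.0889) and the receptor Notch3 (-1.30, adjusted p = 0.141) were lower, in both homozygous arrays.

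**Figure D5:**
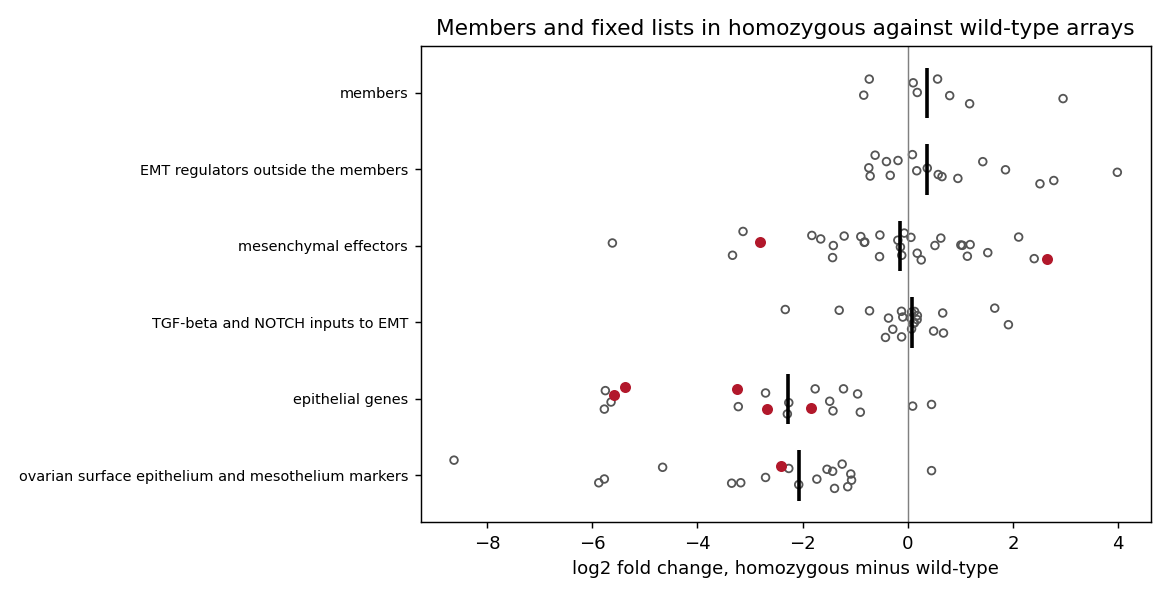
Log2 fold changes (homozygous minus wild-type) of the genes of each list, with a point per tested gene, a vertical bar at the list's median and filled red points for genes called at an adjusted p under 0.05. The epithelial genes lie mostly below 0 (median -2.28) and the mesenchymal effectors lie on both sides (median -0.14).

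The genes whose log2 signal over the 6 arrays followed a member most closely are given as a description, since 6 arrays in 3 groups share the split between the homozygous arrays and the rest. For Prrx1 they were Pds5b (Pearson r = 0.991), Srrm2 (0.991) and Cdkn2b (0.989). For Snai2 they were Card19 (0.998), Mitd1 (0.995) and Wwc1 (0.994). For Cdh2 they were Ephb6 (0.999), Myzap (0.999) and Tulp2 (0.997). For S100a4 they were Aimp2 (0.998), Ccar1 (0.997) and Nufip2 (0.992). For Zeb1 they were Rxylt1 (0.994), Six5 (0.994) and Amotl2 (0.991), and for Zeb2 Spire1 (0.989), Edn1 (0.989) and Ddx46 (0.980). For Twist1 they were Nudt22 (0.983), Cxxc5 (0.978) and Scara5 (0.976), and for Vim Ano6 (0.982), Adam9 (0.981) and Zbed3 (0.978).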

How the data were processed

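Expression was measured on 6 single-colour Affymetrix mouse arrays from biotin-labelled total RNA. The authors deposited linear intensity values for 45101 probe sets. RMA is named by the submitters' processing notes without a version, but the deposited values have a mean of 500 over the middle 96% of probe sets in every array and unequal quantiles, which is the form of MAS 5.0 signals. Log2 was taken of them with no offset and no further normalisation. Probe sets naming 1 gene symbol (34958) were used, with symbols updated by Entrez identifier. Those naming several (932) or none (9211) were left out. Genes at or above the 40th percentile of mean log2 signal, a geometric mean of 60.2, were tested (10916). The 3 group means came from a limma fit (version 3.58.1, run in R 4.3.3) over all 6 arrays, with 3 residual and 2.26 prior degrees of freedom, and Benjamini-Hochberg adjusted p under 0.05 was called. The fit was tested on simulated data. A fold against a group wholly under background is a bound against 24.5. Array precision is limited by the number of arrays. All members are named. From each gene list the called genes are named, filled to 4 by the largest homozygous against wild-type differences where fewer were called, besides Cdh1, Epcam and Fn1. Members and lists were chosen with earlier results of these data known. The alternatives tried were other filters, normalisations, probe set summaries, background treatments, fits and left-out arrays. Promoter searches and plots used Python 3.11.15 with matplotlib 3.10.9.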

Additional observations from a re-analysis of the deposited data

How the results depend on the processing

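The count of members called stayed at 0 in every comparison and setting tried, except that Prrx1 was called in homozygous against wild-type arrays without either homozygous array and in homozygous against heterozygous arrays without homozygous replicate 1, so both counts ranged from 0 to 1 when arrays were left out. The counts of all genes called moved far more, from 291 (homozygous against wild-type) and 446 (homozygous against heterozygous). Averaging a gene's probe sets gave 190 and 281, and other settings gave 0 and 17 with no filter on dim genes, 745 and 827 with an offset of 32 added, 605 and 731 with signals raised to background, and 0 and 9 with only the groups compared. With a spread for each group the second count was 293. Leaving out both wild-type replicate 2 and heterozygous replicate 1, the most alike arrays, gave 0 and 0. Leaving out an array gave 0 to 2663 and 0 to 2841, the highest without homozygous replicate 2. With replicate number as a block, the replicate block, the counts were 0 and 19 and no member, epithelial gene, mesenchymal effector or transition regulator was called. The differences of replicate 2 minus replicate 1 correlated by 0.16 (homozygous with heterozygous), -0.10 (homozygous with wild-type) and -0.30 (heterozygous with wild-type). These correlations cannot decide whether the replicate numbers pair samples. The causes were not tested.

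Sign changes touched members with small differences or with 1 deciding array. Leaving out an array gave log2 differences of homozygous against wild-type between -2.04 and 0.58 for Twist1, -0.15 and 0.36 for Vim, -0.47 and 0.83 for Zeb1 and -0.025 and 1.16 for Zeb2. Homozygous against heterozygous, the ranges were -2.13 to 0.49 for Twist1, -0.057 to 0.041 for Vim, -0.93 to 0.38 for Zeb1 and -0.19 to 1.00 for Zeb2. Heterozygous against wild-type, they were -0.19 to 0.30 for Snai2, -0.60 to 0.78 for Twist1, -0.14 to 0.36 for Vim and -0.015 to 0.34 for Zeb2. Averaged over its probe sets, Zeb2 gave -0.12, -0.11 and -0.0050 in the 3 comparisons. Vim in homozygous against heterozygous arrays gave 0.22 with arrays centred on their medians, 0.055 with averaged probe sets, 0.014 with quantile normalisation and 0.028 without the 2 most alike arrays. Heterozygous against wild-type, Cdh2 gave 0.034 with centred arrays, and Twist1 -0.78 without the 2 most alike arrays. Centring moved the median of all genes by 0.31 in homozygous against wild-type and 0.22 in homozygous against heterozygous arrays. Prrx1, Snai2, S100a4 and Cdh2 kept their direction in both homozygous comparisons under all 17 settings, except that the filter at the 60th percentile left Prrx1 untested.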
